A study of Rattus norvegicus with 8 samples.

Results

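The presynaptic active zone is the patch of membrane in the nerve terminal at which synaptic vesicles dock and fuse. Its scaffold is built from a small number of very large multidomain proteins, which hold calcium channels next to vesicles that are ready for release, and the RIM and Munc13 proteins in this scaffold prime the vesicles so that they can fuse within moments of an action potential. Changes in this machinery are one way in which neurons adjust their output when network activity stays high, a form of homeostatic plasticity. Since the proteins act in axon terminals but are encoded by genes transcribed in the soma, their mRNAs can be asked for in somata and in processes.

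The genes described here are 10 symbols of the count table chosen as a list of presynaptic active zone genes, among 28909 symbols in all. The list is not complete, and liprins, RIM-binding proteins and further relatives are followed below as companion genes. They are the giant scaffolds bassoon (Bsn) and piccolo (Pclo), the ELKS/CAST scaffolds Erc1 and Erc2, the RIM genes Rims1, Rims2 and Rims3, the Munc13 priming factors Unc13a and Unc13b, and rabphilin 3A (Rph3a), a vesicle protein that binds the active GTPases of the Rab3 and Rab27 families. Their rows were taken by symbol, and all 10 passed the filter on low counts, which 14309 symbols passed. The 10 genes and the companion genes were chosen with earlier results of these data known. Their counts and medians beside those of all tested genes are therefore descriptions of the lists and no test.

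Primary hippocampal neurons of Sprague-Dawley rats were grown on filter inserts, so that somata stayed on the upper side while axons and dendrites grew through the pores to the lower side. Axons and dendrites were not separated, so a level in processes cannot be assigned to axons. For 48 h, from day 18 to day 20 in vitro, the cultures received picrotoxin (PTX), an antagonist of GABA-A receptors that raises network activity, or the vehicle alone. Total RNA of the somata and of the processes was then depleted of ribosomal RNA and sequenced, with 2 libraries each from vehicle somata, PTX somata, vehicle processes and PTX processes, 8 in all. The question of the design was whether PTX changes gene expression differently in the compartments.

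The paper plots 2 transcript values per condition and states in general that its plots give the number of independent experiments. The labels do not say that the 2 libraries of a condition came from separate cultures. The p-values below thus measure the spread between these libraries, which may be technical. The libraries held 12290890 to 18455662 counts, of which 9517542 to 11227599 in somata but 4702054 to 5491237 in processes fell outside the mitochondrial genome, and a tested gene had a median of 268 to 319 reads in somata and 96 to 110 in processes. Levels are CPM, counts per 1e+06 counts after TMM scaling, and are compared within a gene only, because the counts were not divided by transcript length. Where groups are said not to overlap, this describes 2 against 2 libraries and is no test. How often all tested genes fail to overlap was not counted. The cultures were mixed, and processes on the lower side also carried glial RNA. All 6 neuronal markers and all 7 astrocyte markers were detected in every condition, and the summed astrocyte level was 3651 to 4077 CPM in vehicle somata and 12694 to 14255 CPM in vehicle processes, with 3 of the 7 markers higher in processes (Gfap and S100b among them) and 2 lower (Slc1a3 and Gja1). The neuronal sum was 1808 to 2058 CPM in vehicle somata and 5127 to 5453 CPM in vehicle processes, with 2 of the 6 markers higher (Map2 and Rbfox3) and 3 lower. All 8 oligodendrocyte lineage markers were detected in every condition, with sums of 293 to 453 CPM in vehicle somata and 469 to 604 CPM in vehicle processes. Of these, 1 was higher in vehicle processes (Olig1) and 0 were lower. Microglial markers summed to at most 1.91 CPM in any library. Of the endothelial markers, Cldn5 was at 0 throughout and the others summed to 1.78 to 8.52 CPM. In bulk RNA of this kind, fewer cells of a type and less RNA per cell cannot be told apart.

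**Figure D1:**
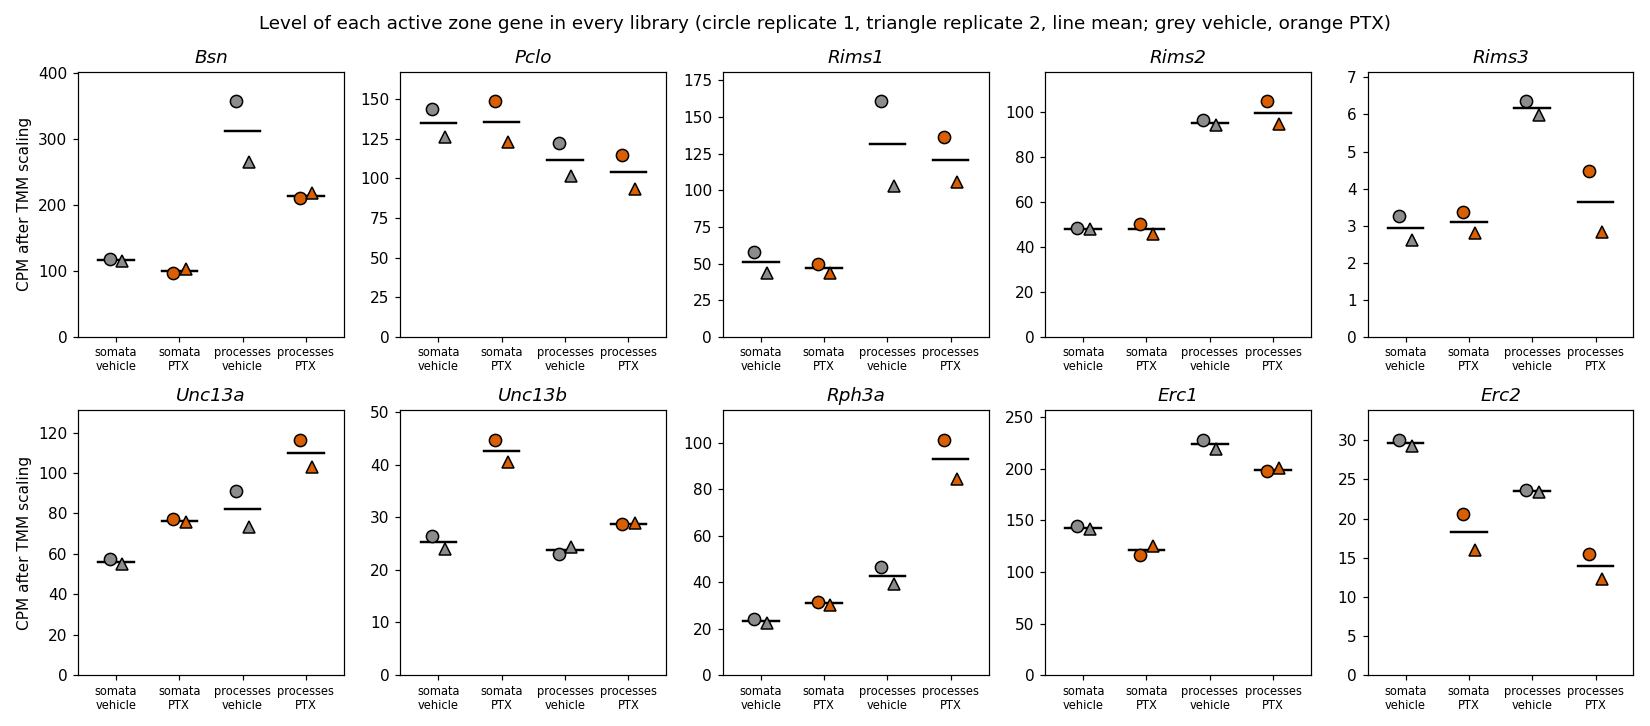
Level of each active zone gene in CPM after TMM scaling (y axis, from 0, a separate scale for each gene) in the 4 conditions (x axis), with 1 point per library, a circle for replicate 1, a triangle for replicate 2 and a line at the mean, grey for vehicle and orange for PTX. Bsn, Rims1, Rims2 and Erc1 lie higher in processes than in somata under both treatments, Pclo does not, Rph3a reaches 84.6 and 101 CPM in PTX processes alone, and the PTX points of Erc2 lie below the vehicle points in both compartments.

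In vehicle cultures, the active zone mRNAs were mostly found at a higher relative level in processes than in somata. Of the 10 genes, 7 were higher in processes (Bsn, Rims1, Rims2, Rims3, Unc13a, Rph3a and Erc1) and 0 were lower, where 25.8% of all tested genes were higher and 21.9% lower (edgeR's quasi-likelihood test, Benjamini-Hochberg adjusted p under 0.05). The median log2 fold change of the 10 genes was 0.76, against -0.05 for all tested genes. The 3 that did not pass, Pclo, Unc13b and Erc2, each belong to a pair whose other gene did. With the replicate number as a block, under which the dispersion is smaller, Pclo and Erc2 passed as lower in processes. The count became 7 higher and 2 lower, where the block called 57.8% of all tested genes in either direction.

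These differences are relative to the typical tested gene. When libraries were scaled by their total counts alone, with no TMM factor, the median of all tested genes moved to -1.86 and the split of the 10 genes turned to 0 higher and 10 lower. This scaling called 13462 of the 14309 tested genes in either direction. Upper quartile scaling gave 7 higher and 2 lower, and scaling by the counts outside the mitochondrial genome, added after the data were seen, moved the median to -0.51 and gave 4 higher (Bsn, Rims1, Rims2 and Rph3a) and 3 lower (Pclo, Unc13b and Erc2). Of the 14309 tested genes, the former called 7454 and the latter 8992 in either direction. A scaling shifts all genes by nearly the same amount, so that Bsn and Rims1 stood at the process end and Pclo, Unc13b and Erc2 at the somatic end of the 10 genes under each of these scalings.

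**Figure D2:**
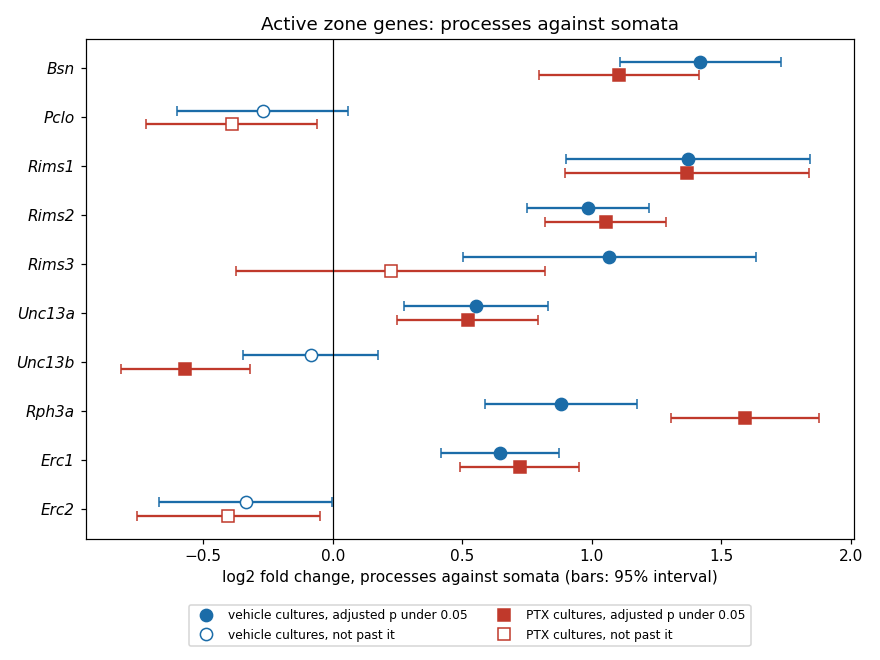
Log2 fold change of each active zone gene in processes against somata after TMM scaling (x axis), with its 95% interval as a bar, in vehicle cultures (blue circles) and PTX cultures (red squares), filled where the adjusted p was under 0.05. The vehicle values run from -0.34 for Erc2 to 1.42 for Bsn, and Unc13b, at -0.09 with vehicle and -0.57 with PTX, is the gene past the threshold on the somatic side. With libraries scaled by total counts alone all 10 vehicle values are negative.

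Bassoon and piccolo are related scaffold proteins of the cytomatrix and share much of their domain structure, but their mRNAs were distributed differently. Bsn was measured at 117 and 115 CPM in vehicle somata, 96.04 and 103 CPM in PTX somata, 357 and 265 CPM in vehicle processes and 210.0 and 217 CPM in PTX processes. Every process library was above every somatic one, and the vehicle processes were the highest and the most variable condition. In processes against somata its log2 fold change was 1.42 with vehicle (SE 0.14, adjusted p = 1.7e-05, quasi-likelihood test) and 1.10 with PTX (SE 0.14, adjusted p = 9.4e-05).

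Pclo was measured at 144 and 126 CPM in vehicle somata, 149 and 123 CPM in PTX somata, 123 and 101 CPM in vehicle processes and 114 and 93.1 CPM in PTX processes. The condition means fall in the order PTX somata, vehicle somata, vehicle processes, PTX processes, and replicate 1 exceeded replicate 2 in every condition. PTX and vehicle overlapped in each compartment, while vehicle processes lay below vehicle somata with no overlap. Its log2 fold change in processes was -0.27 with vehicle (SE 0.15, adjusted p = 0.159, quasi-likelihood test; with the replicate block, adjusted p = 0.0113) and -0.39 with PTX (SE 0.15, adjusted p = 0.0504; with the block, adjusted p = 6.7e-04).

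Because both genes are read from the same library, the number of Pclo reads per Bsn read is free of any scaling between libraries. It was 1.23 and 1.09 in vehicle somata, 1.55 and 1.20 in PTX somata, 0.344 and 0.382 in vehicle processes and 0.545 and 0.429 in PTX processes. The groups of the compartments do not overlap under either treatment, and the mean of the ratio in processes was 31.3% of that in somata with vehicle and 35.5% with PTX.

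The ELKS/CAST proteins, which bind RIMs and bassoon and anchor them at the release site, formed a second pair of this kind. Erc1 was measured at 145 and 141 CPM in vehicle somata, 116 and 125 CPM in PTX somata, 228 and 219 CPM in vehicle processes and 198 and 201 CPM in PTX processes. The process values were above the somatic ones in both treatments, with log2 fold changes of 0.65 (SE 0.10, adjusted p = 4.9e-04, quasi-likelihood test) and 0.72 (SE 0.10, adjusted p = 2.2e-04).

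Erc2, the form found mostly in brain, was measured at 30.1 and 29.2 CPM in vehicle somata, 20.6 and 15.96 CPM in PTX somata, 23.6 and 23.4 CPM in vehicle processes and 15.5 and 12.3 CPM in PTX processes. No process library reached a somatic library of the same treatment, and the log2 fold changes were -0.34 (SE 0.15, adjusted p = 0.0899, quasi-likelihood test; with the replicate block, adjusted p = 0.018) and -0.40 (SE 0.16, adjusted p = 0.0574; with the block, adjusted p = 0.0122). Erc2 reads per Erc1 read were 0.208 and 0.207 in vehicle somata and 0.103 and 0.107 in vehicle processes, so the ratio in processes was 50.6% of that in somata. With PTX the values were 0.177 and 0.127 in somata and 0.0783 and 0.0611 in processes, and in both compartments every PTX value lay below every vehicle value.

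**Figure D3:**
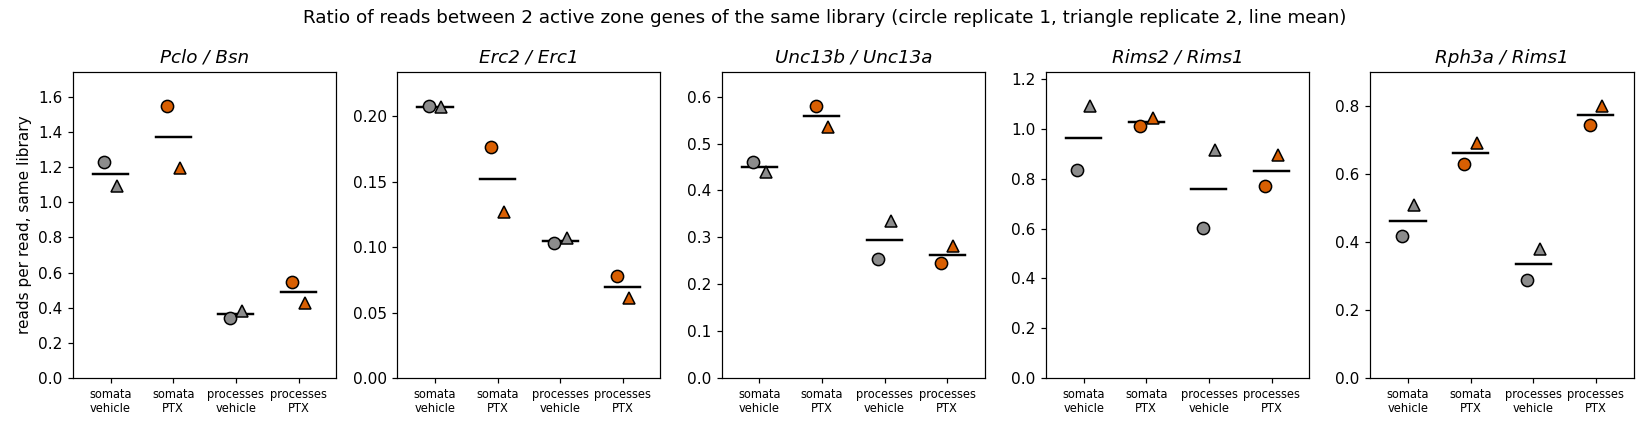
Reads of 1 active zone gene per read of another in the same library (y axis, from 0) in the 4 conditions (x axis), with a circle for replicate 1, a triangle for replicate 2 and a line at the mean, grey for vehicle and orange for PTX. Pclo per Bsn, Erc2 per Erc1 and Unc13b per Unc13a are lower in every process library than in every somatic library of the same treatment, and Rph3a per Rims1 is higher in every PTX library than in every vehicle library of its compartment.

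RIM1 and RIM2 are the central organizers of the active zone, since they bind Rab3 on the vesicle, Munc13 and the calcium channel, while RIM3 is a short form that holds only the C-terminal part. Rims1 was measured at 58.1 and 43.8 CPM in vehicle somata, 49.8 and 43.9 CPM in PTX somata, 161 and 103 CPM in vehicle processes and 136 and 106 CPM in PTX processes. Rims2 was measured at 48.5 and 47.8 CPM, 50.3 and 45.8 CPM, 96.8 and 94.2 CPM and 105 and 94.6 CPM in the same order of conditions. Both genes were higher in processes in every library, Rims1 with a log2 fold change of 1.37 under vehicle (SE 0.21, adjusted p = 4.1e-04, quasi-likelihood test) and also 1.37 under PTX (SE 0.21, adjusted p = 3.9e-04), Rims2 with 0.99 (SE 0.11, adjusted p = 3.2e-05) and 1.05 (SE 0.11, adjusted p = 1.9e-05). For Rims1 the vehicle value rested in part on 1 library, being 1.01 without replicate 1 and 1.66 without replicate 2 of the vehicle processes.

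Rims3 was counted with 28 to 94 reads per library, the lowest depth among the 10 genes. Its level was 3.27 and 2.62 CPM in vehicle somata, 3.38 and 2.79 CPM in PTX somata, 6.36 and 5.99 CPM in vehicle processes and 4.48 and 2.82 CPM in PTX processes. The vehicle processes stood above all other conditions, with a log2 fold change of 1.07 against vehicle somata (SE 0.26, adjusted p = 0.0059, quasi-likelihood test), while the PTX processes overlapped the PTX somata, with 0.22 (95% interval -0.37 to 0.82, adjusted p = 0.513).

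Munc13 proteins open syntaxin so that the fusion machinery can assemble. Unc13a encodes Munc13-1, the main isoform of excitatory hippocampal synapses, and Unc13b encodes Munc13-2. Unc13a was measured at 57.3 and 54.8 CPM in vehicle somata, 77.1 and 75.7 CPM in PTX somata, 91.1 and 73.0 CPM in vehicle processes and 117 and 103 CPM in PTX processes. Its log2 fold change in processes against somata was 0.55 with vehicle (SE 0.13, adjusted p = 0.0044, quasi-likelihood test) and 0.52 with PTX (SE 0.12, adjusted p = 0.00524), and the PTX somata and vehicle processes did not differ beyond their spread.

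For Unc13b the values were 26.4 and 24.0 CPM in vehicle somata, 44.8 and 40.6 CPM in PTX somata, 23.1 and 24.4 CPM in vehicle processes and 28.7 and 28.9 CPM in PTX processes. Here the PTX somata stood above all other conditions. With vehicle the compartments overlapped, with a log2 fold change of -0.09 (95% interval -0.34 to 0.17, adjusted p = 0.575, quasi-likelihood test), and with PTX the gene was lower in processes by a log2 fold change of -0.57 (SE 0.11, adjusted p = 0.0019). Unc13b reads per Unc13a read were 0.460 and 0.439 in vehicle somata, 0.580 and 0.535 in PTX somata, 0.253 and 0.334 in vehicle processes and 0.246 and 0.281 in PTX processes, so that the ratio in processes was 65.3% of that in somata with vehicle and 47.2% with PTX.

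Rabphilin 3A is recruited to vesicles by Rab3A and Rab27 and binds phospholipids and SNAP-25 through its C2 domains. Rph3a was measured at 24.2 and 22.2 CPM in vehicle somata, 31.4 and 30.3 CPM in PTX somata, 46.5 and 39.0 CPM in vehicle processes and 101 and 84.6 CPM in PTX processes. The 4 conditions followed each other in this order with no overlap between neighbours, and the PTX processes stood well apart. In processes against somata its log2 fold change was 0.88 with vehicle (SE 0.13, adjusted p = 3.4e-04, quasi-likelihood test) and 1.59 with PTX (SE 0.13, adjusted p = 4.3e-06).

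With PTX, 6 of the 10 genes were higher in processes and 1, Unc13b, was lower, where 25.7% of all tested genes were higher and 24% lower. Rims3 was the gene among the 7 of the vehicle comparison that did not pass here. The block added Pclo and Erc2 as lower, which gave 6 higher and 3 lower, where it called 59.5% of all tested genes in either direction. Scaling by total counts alone turned the split to 0 higher and 9 lower, with the median of all genes at -1.87. It called 13499 of the 14309 tested genes in either direction.

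In somata, most active zone mRNAs did not pass the threshold after 48 h of PTX, which does not show that they were unchanged. Of the 10 genes, 1 rose (Unc13b) and 1 fell (Erc2), where 2.09% of all tested genes rose and 1.5% fell. Unc13b, at 26.4 and 24.0 CPM with vehicle and 44.8 and 40.6 CPM with PTX, had a log2 fold change of 0.76 (SE 0.11, adjusted p = 0.00425, quasi-likelihood test), a fold of 1.69. The call was lost without replicate 2 of the vehicle somata (0.68, adjusted p = 0.0767) and without replicate 1 of the PTX somata (0.68, adjusted p = 0.0517), both with the quasi-likelihood test.

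Unc13a moved in the same direction in both replicates, with a log2 fold change of 0.45 in somata (SE 0.12, adjusted p = 0.0781, quasi-likelihood test; with the replicate block, adjusted p = 0.00129). The value of Rph3a in somata was 0.41 (SE 0.13, adjusted p = 0.126, quasi-likelihood test, and with the replicate block adjusted p = 0.00434). The block thus raised the somatic count from 1 to 3 genes higher, with 1 lower as before. Over all tested genes it raised the number called from 513 to 2002.

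Erc2 fell in both compartments, with a log2 fold change of -0.70 in somata (SE 0.14, adjusted p = 0.0242, quasi-likelihood test) and -0.76 in processes (SE 0.17, adjusted p = 0.0327). PTX left 61.7% of the vehicle level in somata and 58.9% in processes, and no PTX library reached a vehicle library of its compartment. Both calls are near the threshold. The somatic call was lost without replicate 1 (-0.68, adjusted p = 0.128) or replicate 2 (-0.73, adjusted p = 0.127) of the vehicle somata and without replicate 2 of the PTX somata (-0.53, adjusted p = 0.187). The process call was lost without any 1 of the 4 process libraries (-0.94 to -0.60, adjusted p = 0.063 to 0.186), without either vehicle somata library (adjusted p = 0.0519 and 0.052), and when only the 4 process libraries were fitted (adjusted p = 0.0541). Erc1, its paralogue, had -0.24 in somata (95% interval -0.47 to -0.02, adjusted p = 0.28) and -0.17 in processes (95% interval -0.40 to 0.06, adjusted p = 0.474).

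In processes, PTX had its largest effect among the 10 genes on Rph3a. Of the 10 genes, 1 rose (Rph3a) and 1 fell (Erc2), where 1.64% of all tested genes rose and 2.1% fell. Rph3a went from 46.5 and 39.0 CPM to 101 and 84.6 CPM, a log2 fold change of 1.12 (SE 0.13, adjusted p = 0.00302, quasi-likelihood test) or a fold of 2.17. This value ranked at 237 from the top among the 14309 tested genes, and with each library left out in turn it ranged from 0.98 to 1.25 and stayed past the threshold. Set against another gene of the same library, Rph3a reads per Rims1 read were 0.289 and 0.3799 in vehicle processes and 0.745 and 0.800 in PTX processes.

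Bsn, the most process-enriched of the 10 with vehicle, had a log2 fold change of -0.54 with PTX in processes (95% interval -0.85 to -0.24, adjusted p = 0.0608, quasi-likelihood test), and the groups did not overlap. It passed with the replicate block (adjusted p = 0.00142), with the likelihood ratio test (adjusted p = 0.0126) and with DESeq2 (adjusted p = 0.0128). One vehicle library weighed on the size, which was -0.31 without replicate 1 and -0.74 without replicate 2 of the vehicle processes. In somata the value was -0.23 (95% interval -0.53 to 0.08, adjusted p = 0.509).

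Rims3 had a log2 fold change of -0.77 with PTX in processes (95% interval -1.38 to -0.16, adjusted p = 0.182, quasi-likelihood test; with the block, adjusted p = 0.0456), on 28 to 57 reads. For Unc13a it was 0.42 (SE 0.13, adjusted p = 0.108; with the block, adjusted p = 0.00479), close to its value in somata, and for Unc13b 0.28 (SE 0.12, adjusted p = 0.285). The block gave 2 genes higher (Rph3a and Unc13a) and 3 lower (Bsn, Rims3 and Erc2) in processes. Of all tested genes it called 11.2% in either direction.

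Pclo, Rims1 and Rims2 overlapped between vehicle and PTX in both compartments. Their intervals rest on the spread between these libraries, which may be technical, and so set no firm limit on a change. For Rims2, the most precisely measured of these genes, the 95% interval of the log2 fold change was -0.23 to 0.23 in somata and -0.17 to 0.30 in processes. Those of Pclo were -0.32 to 0.33 and -0.44 to 0.23, and those of Rims1 were wider, -0.58 to 0.34 and -0.59 to 0.34.

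**Figure D4:**
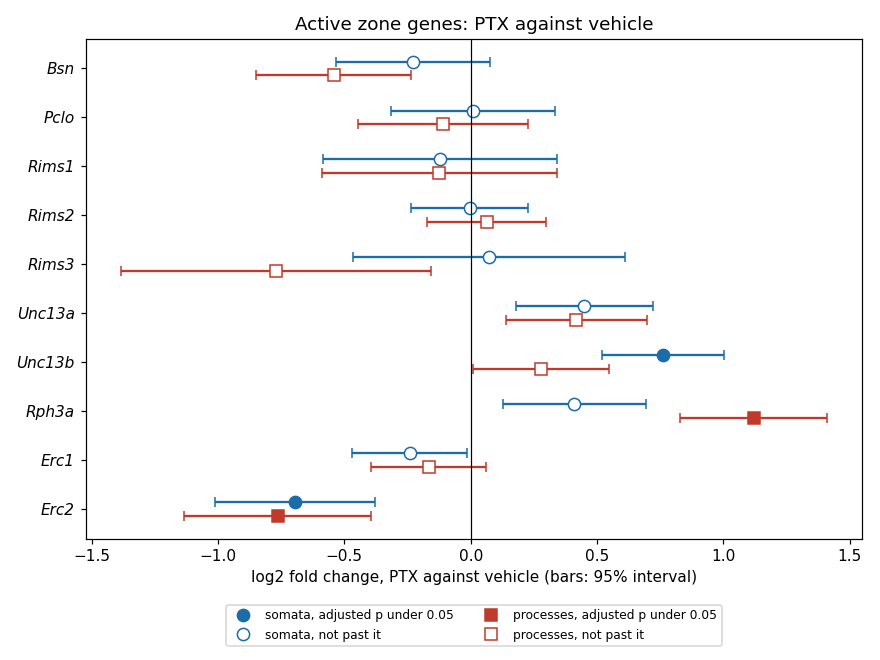
Log2 fold change of each active zone gene with PTX against vehicle (x axis), with its 95% interval as a bar, in somata (blue circles) and processes (red squares), filled where the adjusted p was under 0.05. Unc13b in somata (0.76) and Rph3a in processes (1.12) passed as higher, Erc2 passed as lower in both (-0.70 and -0.76), and the intervals of Pclo, Rims1 and Rims2 contain 0 in both compartments.

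Whether PTX acted differently in the compartments was asked with the interaction term, in which the somatic PTX effect is subtracted from the one in processes. It passed for 0 of the 10 genes and for 0% of all tested genes in the quasi-likelihood test, with 572 genes at an unadjusted p under 0.05 and 4 genes called by the likelihood ratio test, 4 by DESeq2 and 15 with the replicate block. Among the 10, the interaction of Rph3a was 0.71 (SE 0.18, unadjusted p = 0.00276, adjusted p = 1 after rounding) and passed only with the replicate block (adjusted p = 0.0386). Unc13b had -0.48 (SE 0.16, unadjusted p = 0.0134) and Rims3 -0.84 (SE 0.37, unadjusted p = 0.0444), while the other 7 genes lay between -0.31 and 0.07. The larger effect on Rph3a in processes and on Unc13b in somata is therefore not shown to differ between compartments by this test.

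Some markers of neuron types moved with PTX beside these genes. The summed level of the 5 inhibitory neuron markers was 238 to 337 CPM in vehicle somata and 413 to 542 CPM in PTX somata, and 134 to 173 and 218 to 285 CPM in processes. Gad1 (log2 fold change 0.82, adjusted p = 0.0247) and Gad2 (0.92, adjusted p = 0.0328) passed in somata and Gad2 (0.92, adjusted p = 0.0384) in processes in the quasi-likelihood test. Slc32a1 and Sst passed in neither compartment, with -0.02 and 0.31 in somata and 0.16 and 0.28 in processes. The 5 excitatory markers summed to 421 to 439 CPM in vehicle and 278 to 300 CPM in PTX somata, and to 725 to 973 and 513 to 515 CPM in processes, with Camk2a and Neurod6 lower in both compartments and Slc17a7, the vesicular glutamate transporter, higher in processes (0.73, adjusted p = 0.0172). Of the 7 astrocyte markers, 1 fell in somata (Gja1) and 0 passed in processes, and of the 6 neuronal markers 1 fell in somata (Rbfox3, -0.67, adjusted p = 0.0221) and 0 passed in processes. The endothelial marker Kdr rose in somata (1.41, adjusted p = 0.0102), where the endothelial sum was 2.59 to 3.87 CPM with vehicle and 7.71 to 8.52 CPM with PTX. The part of these shifts in the results above was not tested.

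Promoters are shown for Unc13a, the Munc13 gene with the longer run that can be printed, and for the ELKS/CAST pair, in which Erc2 fell with PTX. Without the block, Unc13a did not pass with PTX in either compartment in the quasi-likelihood test. The RefSeq promoter table of assembly GRCr8, a later build than the one used for counting, held an entry for 9 of the 10 genes, all but Rims2. Each was searched over the 250 bases before the start for letters recognized by activity-dependent factors, on both strands. The 3 runs below stop at the outer edge of the annotated gene, 5′ to 3′ on the strand of the gene, with matches to the core of the cAMP response element (TGACG) in capitals.
Unc13a, chr16:18415809-18416036, minus strand: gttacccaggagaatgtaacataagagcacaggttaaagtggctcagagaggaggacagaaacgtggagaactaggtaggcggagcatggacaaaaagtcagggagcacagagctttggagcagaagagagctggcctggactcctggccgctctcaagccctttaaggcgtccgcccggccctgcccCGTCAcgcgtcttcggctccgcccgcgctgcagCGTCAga
Erc1, chr4:154727988-154728237, minus strand: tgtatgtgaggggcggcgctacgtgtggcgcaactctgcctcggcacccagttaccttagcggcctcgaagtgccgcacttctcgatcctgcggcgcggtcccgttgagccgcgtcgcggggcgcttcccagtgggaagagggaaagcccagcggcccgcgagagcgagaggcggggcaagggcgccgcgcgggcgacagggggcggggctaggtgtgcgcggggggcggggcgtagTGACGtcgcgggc
Erc2, chr16:2819262-2819398, plus strand: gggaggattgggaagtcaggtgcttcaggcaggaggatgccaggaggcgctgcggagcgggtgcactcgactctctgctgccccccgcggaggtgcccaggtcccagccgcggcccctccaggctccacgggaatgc

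In the printed part of Unc13a the core occurs at 2 places on the opposite strand, at positions -62 to -58 and -29 to -25 before the start, and a further match lies at -19 to -15. Erc1 holds 1 match, at -13 to -9. Of the 33469 promoters in the table, 18.2% hold this core at least once, and 2 of the 9 active zone genes do. The full element TGACGTCA, found in 1.59% of all promoters and containing the core, was found in 0 of the 9, as were the E-box CACGTG (5.59% of all) and the EGR letters GCGTGGGCG (0.478%).

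Erc2 holds none of the cores but is the 1 gene among the 9 with the AP-1 letters TGAGTCA, found in 4.05% of all promoters. The match lies at -105 to -99, inside the outer edge of the annotated gene and so beyond the run printed above, and is shown in capitals within the 30 bases around it.
Erc2, chr16:2819396-2819425, plus strand: tgctgggaatgTGAGTCAgggcctgggcaa
GC boxes (GGGCGG) were found in 8 of the 9 genes, with 18 matches in all, where 30.5% of all promoters hold at least 1. Unc13b, which rose with PTX in somata, holds GC boxes alone, and Rph3a, which rose in processes, holds none of the letters searched. The member promoters were GC-rich, from 54.8% of the 250 bases for the inner start of Unc13b to 75.6% for Erc2. Such matches are descriptions of the letters and not binding sites.

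The wider machinery around the active zone was followed with 51 further genes, of which 50 were tested (all but Unc13d). In vehicle cultures 16 were higher and 10 lower in processes, where 25.8% of all tested genes were higher and 21.9% lower, with a median log2 fold change of -0.01, against 0.76 for the 10 active zone genes and -0.05 for all tested genes. Among those that passed, the largest values belonged to Unc13c, a further Munc13 gene (2.90, adjusted p = 7.3e-05), Tspoap1, a RIM-binding protein (2.48, adjusted p = 1.5e-05), and Ppfia3, liprin-alpha 3, which binds RIMs and ELKS (2.13, adjusted p = 4.1e-06, all by the quasi-likelihood test). Of the 6 liprins 4 were higher and 0 lower, and of the 11 genes of the Rab3 and Rab27 group 1 was higher and 3 were lower, a difference between groups that was not tested. At the somatic end of those that passed were Ptprd, a receptor phosphatase of the LAR type (-0.97, adjusted p = 0.00227), Stxbp5, tomosyn, which competes for syntaxin (-0.94, adjusted p = 4.9e-04), and Git2, which like Git1 binds piccolo (-0.84, adjusted p = 5e-04). Scaled by total counts alone, 2 were higher and 43 lower, where 13462 of the 14309 tested genes were called in either direction.

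With PTX, 17 of the 50 were higher in processes and 11 lower, where 25.7% of all tested genes were higher and 24% lower, led again by Unc13c (3.32, adjusted p = 2.8e-05), Ppfia3 (2.54, adjusted p = 1.4e-06) and Tspoap1 (2.32, adjusted p = 2.4e-05, all by the quasi-likelihood test). The lowest of those that passed were Doc2a, a calcium sensor of asynchronous release (-1.39, adjusted p = 0.00369), Stxbp5 (-0.96, adjusted p = 4e-04) and Rab3a, the vesicle GTPase that rabphilin and RIM bind (-0.83, adjusted p = 4.6e-04). Doc2a was counted with 15 to 36 reads in the process libraries. Scaled by total counts alone, 3 were higher and 43 lower, where 13499 of the 14309 tested genes were called in either direction.

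With PTX against vehicle, 3 of the 50 genes passed in each compartment, where 2.09% of all tested genes rose and 1.5% fell in somata and 1.64% rose and 2.1% fell in processes. In somata 2 rose, Rab3gap2, a regulator of Rab3 (0.51, adjusted p = 0.0194, quasi-likelihood test), and Rimbp2, a RIM-binding protein (0.52, adjusted p = 0.0414), and 1 fell, Rab3d (-0.78, adjusted p = 0.0221). The block gave 5 higher and 8 lower, where it called 14% of all tested genes. DESeq2 left Rab3gap2 past the threshold but not Rimbp2 or Rab3d (adjusted p = 0.0694 for both). All 3 calls were lost without any 1 of the 4 somatic libraries (adjusted p = 0.0996 to 0.262), and that of Rimbp2 also without either PTX process library (adjusted p = 0.0537 and 0.0546). In processes 2 rose (Rab27b and Git1) and 1 fell (Rab3d). With the block 6 rose and 5 fell, where it called 11.2% of all tested genes.

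Rab27b, the GTPase that recruits rabphilin to vesicles, was measured at 5.35 and 5.99 CPM in vehicle and 15.3 and 21.5 CPM in PTX processes, a log2 fold change of 1.70 (SE 0.24, adjusted p = 0.00445, quasi-likelihood test), on 48 to 214 reads. Without replicate 1 of the vehicle processes it was 1.62 (adjusted p = 0.061). In somata the levels were 5.91 and 4.15 CPM and 8.20 and 9.15 CPM, with 0.79 (SE 0.21, adjusted p = 0.0692; with the block, adjusted p = 0.00278). So Rph3a and Rab27b both rose in processes, and both had the smaller value in somata. Rab3a had -0.25 in processes (SE 0.14, adjusted p = 0.429, quasi-likelihood test). The other Rab3 and Rab27 genes were also below 0 there, Rab3b at -0.47, Rab3c at -0.35, Rab3d at -0.93 and Rab27a at -0.71. Of these, Rab3d passed. A joint response of rabphilin and the GTPases was not tested.

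Git1, an adaptor of the active zone that binds piccolo and liprins, went from 148 and 112 CPM to 298 and 238 CPM in processes, a log2 fold change of 1.04 (SE 0.15, adjusted p = 0.00538, quasi-likelihood test). Its somatic value was 0.46 (SE 0.15, adjusted p = 0.147; with the block, adjusted p = 0.00292). Rab3d fell in processes too, from 9.14 and 8.81 CPM to 4.48 and 4.93 CPM (log2 fold change -0.93, adjusted p = 0.0252), a call lost without any 1 of the process libraries (adjusted p = 0.0636 to 0.133). The interaction passed for 0 of the 50 genes, also with the block.

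**Figure D5:**
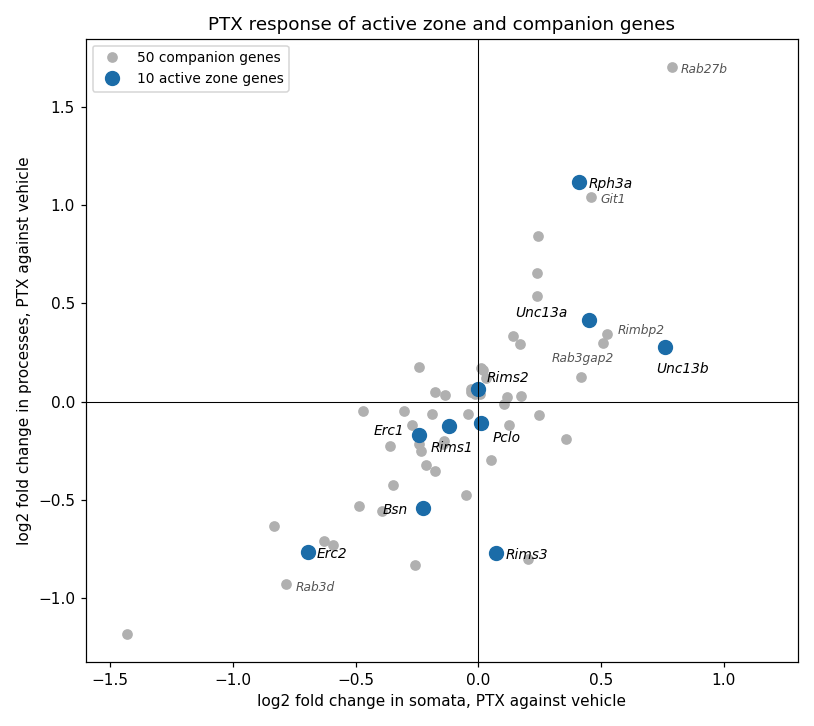
Log2 fold change with PTX against vehicle in somata (x axis) and in processes (y axis) for the 10 active zone genes (blue) and 50 companion genes of the release machinery (grey), 1 point per gene, with names for the 10 genes and for companions past the threshold in a compartment. Rph3a (1.12), Git1 (1.04) and Rab27b (1.70) are the named genes highest on the process axis, and Erc2 and Rab3d lie below 0 on both axes.

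For each of the 10 genes, the tested genes averaging 5 CPM or more whose centred log2 CPM profile over the 8 libraries was most like it were listed, by the root mean square (RMS) difference, with 10207 genes compared (10208 for Rims3). Bsn was closest to Cdk5r2 (0.05), an activator of the kinase Cdk5, and Prrc2b (0.07), Rims1 to Vamp2 (0.07), the vesicle SNARE synaptobrevin 2, and Parp6 (0.09), and Rims2 to Ndufa4 (0.03) and Ndufc1 (0.06), both of the respiratory chain. Pclo was closest to Nedd4l (0.04), a ubiquitin ligase, Erc1 to Ndst1 (0.06) and Erc2 to Dok4 (0.09). Unc13a was closest to Homer1 (0.08), a postsynaptic scaffold, and Unc13b to Fat3 (0.06). For Rph3a the nearest were Tpm4 (0.13), a tropomyosin, Znrf1 (0.15) and Git1 (0.18), and for Rims3 the nearest was Zfp536 (0.14). The measure describes 8 libraries that share 4 conditions, and nothing about function is read from it.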

How the data were processed

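Rat hippocampal cultures on filter inserts gave 8 libraries of ribosome-depleted total RNA from 4 conditions. Trimmed reads were aligned by the authors to assembly Rnor 6.0 and assigned to genes with featureCounts; the methods name Subread as the aligner, while the submitters' processing notes name STAR. The deposited values are raw counts summed by gene symbol, so that gene copies under 1 symbol are pooled, and the origin of reads from overlapping genes is uncertain. The authors' tables of their own PTX comparisons (fold changes and p-values) were not used.

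Symbols counted over 20 times in 2 or more libraries were tested (14309 of 28909). With edgeR 4.0.16 in R 4.3.3, TMM factors were computed, all 8 libraries were fitted with 1 coefficient for each condition, and glmQLFTest p-values were adjusted by Benjamini-Hochberg over all tested genes, with 0.05 as the threshold. The authors used edgeR's likelihood ratio test. A standard error (SE) is the log2 fold change over the square root of F. Log2 CPM used a prior count of 2. The code was tested on simulated data.

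Libraries of the same replicate number deviated together, since the differences between replicates 2 and 1 correlated between every pair of conditions (r = 0.27 to 0.54 across genes). The labels give the numbers but not what they mark, so a pairing of the libraries is not established. As a block they lowered the common dispersion from 0.0132 to 0.00459. The fits were repeated with the likelihood ratio test, DESeq2 1.42.0, other scalings and filters, the 4 compared libraries alone, the block, a log2 fold change over 1, and each library left out.

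All 10 active zone genes are named. Companion genes are named where they passed in a PTX comparison or were among the 3 largest rises or falls of those past the threshold between compartments, and 3 alike genes were listed for each active zone gene, of which up to 3 are given. The genes and lists were chosen with earlier results of these data known. Transcript lengths, isoforms and proteins were not analysed here.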

Additional observations from a re-analysis of the deposited data

How the results depend on the processing

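Scaling decided the direction between compartments. With library size only, the log2 fold changes in vehicle processes were Bsn -0.40, Rims1 -0.46, Rims2 -0.82, Rims3 -0.74, Unc13a -1.27, Rph3a -0.93 and Erc1 -1.16, and with PTX -0.72, -0.47, -0.78, -1.61, -1.31, -0.24 and -1.10 in the same order. This setting called 0 active zone genes higher and 10 lower with vehicle and 0 and 9 with PTX, 2 and 43 companions with vehicle and 3 and 43 with PTX, and 191 and 13271 of all genes with vehicle and 181 and 13318 with PTX. Library size outside the mitochondrial genome, chosen after seeing the data, called 4 active zone genes higher and 3 lower with vehicle and 3 lower with PTX, 24 and 26 companions lower, and 1935 higher and 7057 lower genes with vehicle and 1958 and 7104 with PTX. Under it Rims3 in PTX processes was -0.23. Upper quartile called 2 and 3 active zone genes lower (4704 genes lower with vehicle), the filter of 10 reads in every library 1 and 3, and the likelihood ratio test and no filter 3 each with PTX. Above a log2 fold change of 1 there were 3 higher with vehicle and 0 lower with PTX.

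The replicate block called 2 and 3 active zone genes lower between compartments. Of all genes it called 57.8% with vehicle and 59.5% with PTX. For PTX in somata it called 3 active zone genes higher, 5 companions higher and 8 lower, and 1031 and 971 of all genes, and in processes 2 and 3 active zone genes, 6 and 5 companions, and 730 and 871 of all genes. The interaction passed for 1 active zone gene with the block and for 11 higher and 4 lower of all genes. Beyond the calls given with the results, the block changed no other call of an active zone gene.

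For PTX in somata, 2 active zone genes were higher with the likelihood ratio test, library size only, no filter or only the 4 libraries compared, and 0 passed in either direction above a log2 fold change of 1. Companions there were 1 higher with DESeq2 and 4 with no filter, and 2 lower with the likelihood ratio test, 0 with library size only and 3 with no filter. All genes were 541 higher and 431 lower with the likelihood ratio test, 652 and 489 with no filter, and 140 lower with library size only. In processes, active zone genes were 2 higher with no filter, and 2 lower with the likelihood ratio test, DESeq2 or no filter but 0 with only the 4 libraries compared or above a log2 fold change of 1. Companions in processes were 5 higher and 2 lower with the likelihood ratio test, 4 and 2 with DESeq2 or library size only, 5 and 4 with no filter, 2 lower with upper quartile or library size outside the mitochondrial genome, and 0 lower with only the 4 libraries compared. All genes there were 424 and 525 with the likelihood ratio test, 525 and 604 with no filter, and 138 lower with only the 4 libraries compared. For the interaction, 4 genes were higher with the likelihood ratio test and with DESeq2, and 7 higher and 3 lower with no filter. The cause of these shifts was not tested.

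With each library left out in turn, active zone genes between compartments stayed at 7 higher and 0 lower with vehicle and at 6 higher and 1 to 3 lower with PTX. For PTX in somata they were 0 to 2 higher and 0 to 1 lower, in processes 1 higher and 0 to 1 lower, and for the interaction 0. Companions ranged from 14 to 17 higher and 7 to 9 lower with vehicle, from 14 to 17 and 8 to 11 with PTX, from 0 to 2 and 0 to 1 for PTX in somata, and from 1 to 4 and 0 to 2 in processes.

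Apart from the scaling between compartments, signs turned for members that had not passed. For PTX in somata, Rims2 was 0.063 with library size only, 0.0031 with no filter, 0.0046 with only the 4 libraries compared and 0.0077 with library size outside the mitochondrial genome, and Pclo was -0.012 with upper quartile. With each library left out in turn, the somatic values ranged from -0.14 to 0.14 for Pclo, -0.32 to 0.093 for Rims1, -0.077 to 0.060 for Rims2 and -0.092 to 0.23 for Rims3. In processes they ranged from -0.27 to 0.035 for Pclo, -0.41 to 0.23 for Rims1 and -0.014 to 0.14 for Rims2. Between compartments with PTX, Rims3 ranged from -0.14 without replicate 1 to 0.53 without replicate 2 of the PTX processes. With 28 to 57 reads of Rims3 in processes, depth limits that gene most.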

Other observations

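The 10 active zone genes together held 607 to 654 CPM in vehicle somata, 606 to 638 CPM in PTX somata, 948 to 1156 CPM in vehicle processes and 943 to 1030 CPM in PTX processes. Their summed level thus overlapped between vehicle and PTX in each compartment, although single genes differed in both directions. Rph3a reads per Bsn read were 0.130 and 0.147 in vehicle processes and 0.483 and 0.389 in PTX processes, and 0.206 and 0.193 against 0.327 and 0.295 in somata.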
